A study of Mus musculus with 2 samples.

Results

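The R-spondins (Rspo1, Rspo2, Rspo3 and Rspo4), their Lgr receptors (Lgr4, Lgr5 and Lgr6) and the ubiquitin ligases Znrf3 and Rnf43 were examined in cultured mouse intestinal subepithelial myofibroblasts (ISEMFs), the contractile mesenchymal cells that lie under the intestinal epithelium. The members were taken by gene symbol, 9 of the 37309 genes listed. The families were singled out with the levels in these libraries already known, that is, they were chosen by their RPKM and read counts in this same comparison, so the values of all 9 genes are a description and no test was made on them. The data are 1 RNA sequencing library of supportive ISEMFs, which the study grew from 5-day-old neonates, and 1 library of non-supportive ISEMFs, grown from 2-month-old adults. Mice of both ages were wild type C57BL/6. "Supportive" is the study's word for cells on which intestinal crypts grow without added R-spondin. In the study, the non-supportive cells allowed such growth only weakly. Neither population has a replicate, so none of the differences could be checked against a spread between replicates. Age and population cannot be told apart. The study's methods do not state at which passage the cells were sequenced, but the deposited names carry unexplained codes, P16 for the supportive and P3 for the non-supportive library. If these are culture passages, passage and population cannot be told apart either.

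R-spondins are secreted agonists of Wnt signaling. They bind an Lgr receptor together with Znrf3 or Rnf43, which are transmembrane ligases that mark Frizzled receptors for removal from the cell surface, and they thereby clear the ligase and leave more Frizzled in place. In the intestine, Lgr5 is best known as a marker of the stem cells at the crypt base, whose growth depends on Wnt ligands and R-spondins that the surrounding mesenchyme can supply.

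Reads assigned to genes numbered 50674472 for supportive ISEMFs and 49615497 for non-supportive ISEMFs. Levels are RPKM, which scales the reads of a gene to its exon length in kilobases and to the library size. A gene is called expressed where its RPKM reached 1 in at least 1 of the libraries. Ratios are of supportive over non-supportive ISEMFs. The log2 ratios were taken after adding 0.1 to each RPKM, which shrinks the ratio of weakly expressed genes. Counts of genes at least 2-fold different use these log2 ratios. Gene coordinates are of mm9. Intervals of a level (exact Poisson) and of a ratio (exact Clopper-Pearson) are at 95% and cover counting error only. The mitochondrial genome took 14.6% of the supportive and 7.85% of the non-supportive reads assigned to genes.

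Both libraries carried the markers of myofibroblasts. All 8 myofibroblast markers were expressed, and their summed RPKM was 2580 in supportive and 3136 in non-supportive ISEMFs. The highest was Acta2 (α-smooth muscle actin), with an RPKM of 908 and 1410. Single markers differed in both directions, Col1a2 (286 and 41.6) and Pdgfrb (28.1 and 7.67) being at least 2-fold higher and Pdgfra (3.37 and 12.1) at least 2-fold lower in supportive ISEMFs. The muscle list had a summed RPKM of 357 and 593, led by Actg2 (enteric smooth muscle actin) at 247 and 292. Of its 5 genes, 3 were at least 2-fold lower in supportive ISEMFs, namely Des (0.575 and 3.40), Myh11 (26.3 and 108) and Cnn1 (78.6 and 187), while Smtn was at 4.88 and 3.16. In these bulk libraries, fewer cells of a type and less RNA per cell cannot be told apart.

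Of the 9 genes, 8 had a read in either library and 5 were expressed. Among those 5 genes, 2 (Rspo2 and Lgr5) were at least 2-fold higher in supportive ISEMFs, 0 were at least 2-fold lower, and 3 (Rspo3, Lgr4 and Znrf3) differed by less than 2-fold. Over all 10086 expressed genes, 18.3% differed by at least 2-fold, 9.01% being higher and 9.27% lower in supportive ISEMFs. The median log2 ratio over those genes was -0.07. The other 4 members (Rspo1, Rspo4, Lgr6 and Rnf43) were not expressed by this definition and are in none of these counts.

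**Figure D1:**
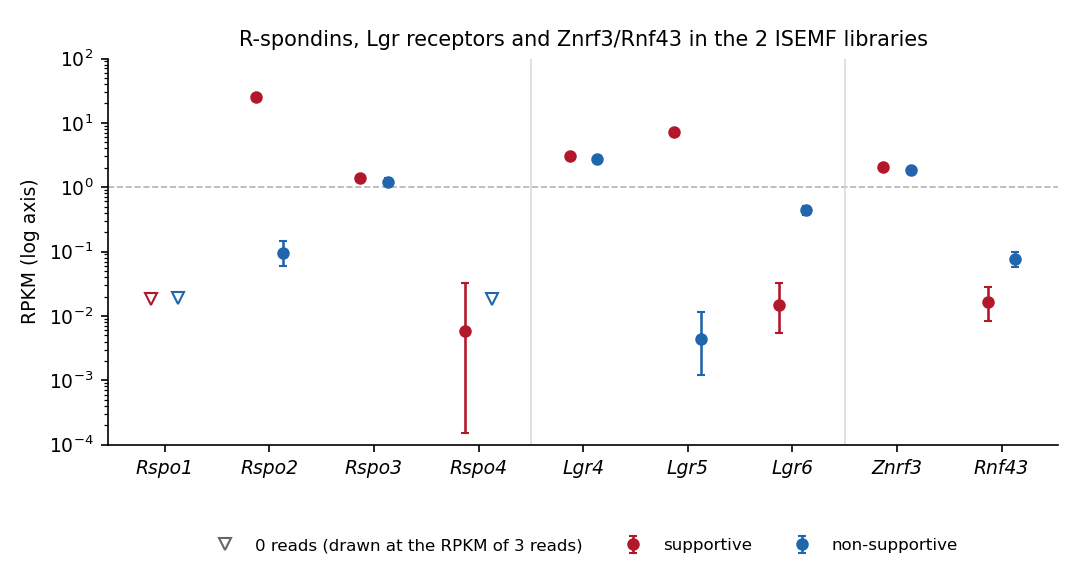
RPKM of each gene (log axis) in the supportive (red) and the non-supportive (blue) library, with bars for the exact 95% Poisson interval of its reads, open triangles at the RPKM of 3 reads for genes with 0 reads, and a dashed line at an RPKM of 1. Rspo2 (24.9 and 0.0953) and Lgr5 (7.22 and 0.00443) lie far apart, Rspo3, Lgr4 and Znrf3 nearly together, and Lgr6 and Rnf43 are higher in the non-supportive library.

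Rspo2 (ENSMUSG00000051920), the gene of R-spondin 2, was the highest of the 9 genes in supportive ISEMFs. The gene spans bases 42852357 to 43002364 of chromosome 15 (mm9, minus strand), with 6 exons and 1 annotated transcript of 3324 bases. Its 5918 reads in the supportive library gave an RPKM of 24.9 (24.3 to 25.6), rank 885 of the 22379 protein-coding genes. Non-supportive ISEMFs had 22 reads and a level of 0.0953 RPKM (0.0597 to 0.144), rank 12212. The level was 261-fold higher in supportive ISEMFs (173 to 417) and the log2 ratio was 7.00 (6.68 to 7.29). Over the 9110 expressed protein-coding genes, this log2 ratio ranked 1 with the deposited exon lengths. The rank moved with the pseudocount, to 5 with a pseudocount of 1 and to 10 with 0.001.

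Rspo3 (ENSMUSG00000019880), the gene of R-spondin 3, was at a low and similar level in both libraries. Its 5 exons span bases 29172915 to 29255673 of chromosome 10 (minus strand). Supportive ISEMFs had 234 reads (RPKM 1.37, 1.198 to 1.55) and non-supportive ISEMFs 200 reads (RPKM 1.203, 1.04 to 1.38). The ratio was 1.14 (0.937 to 1.38), so a difference was not detectable at this depth, and an increase above 1.38-fold lay outside the counting interval.

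Rspo1 and Rspo4 were at or under the limit of detection. Rspo1 (ENSMUSG00000028871), the R-spondin usually added to intestinal organoid cultures, spans bases 124663674 to 124686343 of chromosome 4 (plus strand). No read fell on it (0 in both libraries), which allows levels of up to 0.0184 RPKM in supportive and 0.0189 in non-supportive ISEMFs, those of 3 reads. Rspo4 (ENSMUSG00000032852), whose human counterpart is known for its part in nail growth, spans bases 151668663 to 151700404 of chromosome 2 (plus strand). The supportive library had 1 read of it, an RPKM of 0.0059, and the other library 0, so no ratio is given.

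The summed RPKM of the 4 genes was 26.3 in supportive and 1.30 in non-supportive ISEMFs, a ratio of 20.2. Rspo2 made 94.8% of the sum in supportive ISEMFs (94.1% to 95.4%) and 7.34% in non-supportive ISEMFs (4.63% to 11.0%). Rspo3 made 5.203% of it in supportive and 92.7% in non-supportive ISEMFs. The leading R-spondin was thus Rspo2 in supportive and Rspo3 in non-supportive ISEMFs, while the RPKM of Rspo3 itself was 1.37 and 1.203.

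The receptors Lgr4 and Lgr6 are shown with the 250 bases before their annotated start, as the receptor with a similar level in both libraries and the receptor that was lower in supportive ISEMFs. The table of RefSeq promoters used here (GRCm38.p6) was matched by symbol for 5 of the 9 genes, Rspo1, Rspo4, Lgr4, Lgr6 and Rnf43. Promoters of Rspo2, Rspo3, Lgr5 and Znrf3 were not analysed here. The Lgr4 window is chr2:109917397-109917646 on the plus strand and the Lgr6 window is chr1:135105277-135105526 on the minus strand. Both are written 5′ to 3′ with each CG dinucleotide in capitals.
Lgr4: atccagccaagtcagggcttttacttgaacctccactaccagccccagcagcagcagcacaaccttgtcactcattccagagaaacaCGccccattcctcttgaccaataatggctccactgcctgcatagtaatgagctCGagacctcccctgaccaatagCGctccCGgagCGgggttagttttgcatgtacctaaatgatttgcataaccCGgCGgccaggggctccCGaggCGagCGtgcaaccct
Lgr6: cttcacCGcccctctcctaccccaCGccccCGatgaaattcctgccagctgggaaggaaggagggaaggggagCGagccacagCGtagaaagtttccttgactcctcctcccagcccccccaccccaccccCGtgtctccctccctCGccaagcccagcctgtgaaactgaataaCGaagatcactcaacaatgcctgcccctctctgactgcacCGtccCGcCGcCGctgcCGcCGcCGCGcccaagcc

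The Lgr4 window held 10 CG dinucleotides at a GC content of 55.6%, and the Lgr6 window 16 at 65.2%, where the median over the 32851 RefSeq promoter windows was 6. The windows of Rspo1 and Rspo4, the R-spondins with 0 or 1 read, held 22 and 24. The windows of Rnf43 held 8 and 2, at a GC content of 44.4% and 45.2%. The core of the Tcf/Lef binding motif, searched on both strands as CTTTGNN with A or T at each N, had 0 matches in the Lgr4, Lgr6, Rspo1, Rspo4 and Rnf43 windows. It was present in 14.8% of all promoter windows of that length. The absence says only that these letters are not in the 250 bases shown.

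Lgr5 (ENSMUSG00000020140) encodes the leucine-rich repeat receptor that marks crypt base stem cells, and it was the highest of the Lgr receptors in supportive ISEMFs. Its locus is chromosome 10, bases 114887367 to 115024836 (minus strand), and the longest protein-coding transcript has 18 exons. The supportive library held 6702 Lgr5 reads, an RPKM of 7.22 (7.05 to 7.39) at rank 3151 of the protein-coding genes. The non-supportive library held 4 reads, an RPKM of 0.00443 (0.00121 to 0.0114) at rank 15365. Of all Lgr5 reads, 99.9% were in the supportive library. The ratio of 1628 had an interval from 636 to 5978, wide because it rests on those 4 reads. The log2 ratio was 6.13 (6.04 to 6.18), rank 7 of 9110, and it ranked 35 with a pseudocount of 1 and 5 with 0.001. A gene annotated on the opposite strand inside Lgr5 shares 0 exon bases with it and had 17 and 0 reads.

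Beside Lgr5, all other listed markers of stem cells and of the epithelium except Lrig1, Bmi1 and, in non-supportive ISEMFs, Krt20 were under an RPKM of 1. Olfm4, a marker of the same stem cells, had 0 reads in both libraries. Ascl2, a stem cell transcription factor, had 0 reads in supportive and 1 read in non-supportive ISEMFs. Of the 8 stem cell genes other than Lgr5, 2 were expressed, namely Lrig1 at 8.20 and 7.65 and Bmi1 at 4.04 and 2.92, and the summed RPKM was 13.1 and 11.6. The 12 epithelial markers had a summed RPKM of 0.755 in supportive and 3.52 in non-supportive ISEMFs. In the supportive library Epcam, Cdx1, Cdx2, Chga, Elf3 and Fabp2 had 0 reads, and Vil1 had 7. Cdh1, the gene of E-cadherin, had 159 reads there (RPKM 0.427) and 18 in non-supportive ISEMFs (0.0497). The highest epithelial marker was Krt20, at 0.0799 and 3.13.

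Lgr4 (ENSMUSG00000050199), the broadly expressed receptor of the family, was at a similar level in both libraries. Its locus is chromosome 2, bases 109757804 to 109854414 (plus strand). With 1337 and 1165 reads, its RPKM was 3.07 (2.91 to 3.24) in supportive and 2.76 (2.60 to 2.92) in non-supportive ISEMFs. The ratio was 1.12 (1.03 to 1.21) and the log2 ratio 0.15.

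Lgr6 (ENSMUSG00000042793), known as a stem cell marker of the hair follicle and skin, went the other way from Lgr5. Its locus is chromosome 1, bases 136882925 to 137001853 (minus strand). Supportive ISEMFs had 6 Lgr6 reads, a level of 0.0148 RPKM (0.00544 to 0.0323), and non-supportive ISEMFs 171 reads, a level of 0.435 (0.372 to 0.505). The level was 29.3-fold lower in supportive ISEMFs (13.2 to 81.0), with a log2 ratio of -2.22 on the scale with 0.1 added. Both levels are under an RPKM of 1.

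**Figure D2:**
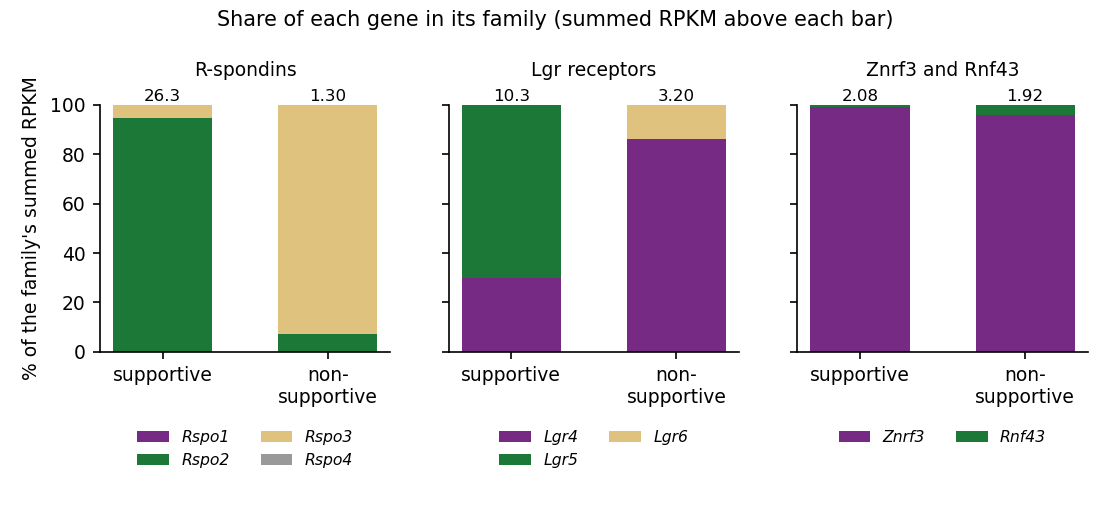
Share of each gene in the summed RPKM of its family (0 to 100%), for the R-spondins, the Lgr receptors and the pair Znrf3 and Rnf43 in each library, with the summed RPKM above each bar. The leading R-spondin was Rspo2 (94.8%) in supportive and Rspo3 (92.7%) in non-supportive ISEMFs, the leading Lgr receptor was Lgr5 (70.0%) in supportive and Lgr4 (86.3%) in non-supportive ISEMFs, and Znrf3 led its pair in both.

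The summed RPKM of the Lgr receptors was 10.3 in supportive and 3.20 in non-supportive ISEMFs, a ratio of 3.23. Lgr5 made 70.0% of it in supportive ISEMFs (68.8% to 71.3%) and 0.139% in non-supportive ISEMFs (0.0378% to 0.355%). Lgr4 made 29.8% and 86.3%, and Lgr6 0.144% and 13.6%. These shares depend on the exon length given to each gene. The deposited length of Lgr5 is 12990 bases, against 10264 bases covered by its exons in the GENCODE vM1 annotation and 4714 bases in its longest coding transcript. By those lengths the Lgr5 level in supportive ISEMFs was 9.14 and 19.9, and its share of the family 74.1% and 84.2%. The summed RPKM of the family was then 3.52-fold and 5.89-fold higher in supportive ISEMFs. The ratio of a single gene's RPKM between the libraries does not depend on its length. The log2 ratio after adding 0.1 does, and so do its rank and the counts at 2-fold. Log2 ratios were taken with the deposited lengths only.

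Znrf3 (ENSMUSG00000041961) was the higher ligase in both libraries. Its locus is chromosome 11, bases 5176327 to 5344850 (minus strand). There were 1613 reads and an RPKM of 2.07 (1.97 to 2.17) in supportive ISEMFs, and 1402 reads and an RPKM of 1.85 (1.75 to 1.95) in non-supportive ISEMFs. The ratio of 1.12 had an interval from 1.04 to 1.20, and the log2 ratio was 0.15. Ranks among protein-coding genes were 6735 and 6952.

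Rnf43 (ENSMUSG00000034177), the partner ligase and a target of Wnt signaling in the intestinal epithelium, was low in both libraries. The gene spans bases 87476224 to 87549041 of chromosome 11 (plus strand). There were 12 reads in supportive and 54 in non-supportive ISEMFs, with RPKM values of 0.0164 (0.00847 to 0.0286) and 0.0759 (0.0570 to 0.0990). The level was 4.63-fold lower in supportive ISEMFs (2.45 to 9.51), with a log2 ratio of -0.60 on the scale with 0.1 added. The summed RPKM of both ligases was 2.08 and 1.92, of which Znrf3 made 99.2% (98.6% to 99.6%) in supportive and 96.1% (94.9% to 97.0%) in non-supportive ISEMFs.

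Markers of other cell types also differed between the libraries. Like Lgr6 and Rnf43, the 3 muscle markers above and the expressed immune markers were higher in non-supportive ISEMFs. Over all expressed genes, 9.27% went in this direction by at least 2-fold. Of the 10 immune markers in the table, 6 were expressed and all 6 were at least 2-fold lower in supportive ISEMFs. The summed RPKM was 6.95 in supportive and 122 in non-supportive ISEMFs, and Lyz2, the lysozyme of macrophages, led with 6.31 and 72.7. Tyrobp (0 and 30.0), Ptprc (0 and 1.67) and Emr1 (0 and 2.42) had 0 reads in the supportive library. The interstitial cell of Cajal pair (Ano1 and Kit) summed to 0.0225 and 1.95, nearly all of it Ano1 at 0.0225 and 1.94. Markers of nerve and glia summed to 8.66 and 3.71, with S100b at 6.69 and 0.116 and Tubb3 at 1.92 and 3.52, while Sox10 had 0 reads in both. Endothelial markers summed to 0.131 and 0.209, with Kdr at 0.00359 and 0.162 and Tek at 0.127 and 0.00402, and mesothelial markers to 0.127 and 0.0432, with Upk3b highest at 0.125 and 0. The part of any other cell type in the levels of the 9 genes was not tested.

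**Figure D3:**
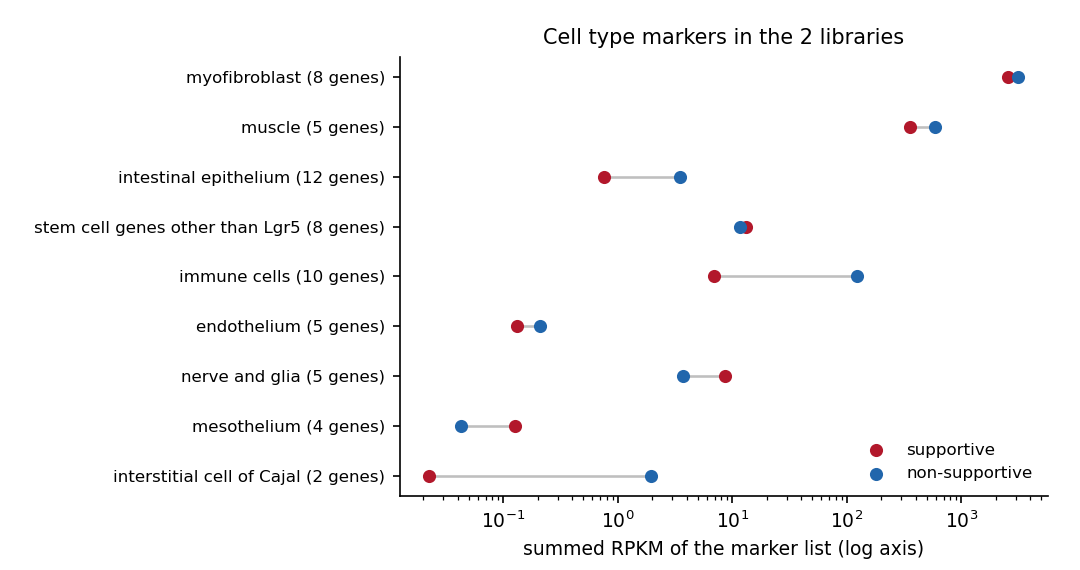
Summed RPKM (log axis) of each cell type marker list in the supportive (red) and the non-supportive (blue) library, the points of a list joined by a grey line. Myofibroblast markers were high in both (2580 and 3136), while immune markers (6.95 and 122) and the interstitial cell of Cajal pair (0.0225 and 1.95) were far apart.

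By level, the order in supportive ISEMFs was Rspo2, Lgr5, Lgr4, Znrf3 and Rspo3. With the deposited lengths, the counting intervals of these 5 genes did not overlap. Below them, the intervals of Rnf43, Lgr6 and Rspo4 overlapped. In non-supportive ISEMFs the order was Lgr4, Znrf3, Rspo3, Lgr6, Rspo2, Rnf43 and Lgr5, and the intervals of Rspo2 and Rnf43 overlapped. The order of that pair turned with the gene length, since Rnf43 was at 0.119 by the exon union and 0.180 by the longest coding transcript, against 0.0953 for Rspo2. Rspo2 and Lgr5, the highest members in supportive ISEMFs, were thus among the lowest there, above Rspo1 and Rspo4 with 0 reads. By their longest coding transcripts, Lgr4 and Znrf3 were at 3.70 and 3.58 in supportive and 3.32 and 3.20 in non-supportive ISEMFs. These gaps are smaller than the width of either gene's counting interval, so the order of Lgr4 and Znrf3 is not resolved on that length.

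The protein-coding genes most like Rspo2 were sought by the distance between log2(RPKM + 0.1) values over both libraries, which are only 2 points per gene. Of 9109 genes, the nearest was Akr1c14, an aldo-keto reductase, with RPKM values of 22.7 and 0.194 and a distance of 0.60. Then came Serpinb1a, an inhibitor of serine proteases, at 16.9 and 0.136. Eya4, a transcriptional coactivator, was at 17.9 and 0.158. Gstt1, a glutathione transferase, was at 16.3 and 0.116. The fifth was Adamtsl3, a secreted matrix protein, at 16.05 and 0.0620 and a distance of 0.69. Lgr5 was at place 23 with a distance of 1.99, and Znrf3, Lgr4 and Rspo3 were at places 1794, 1972 and 2156.

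**Figure D4:**
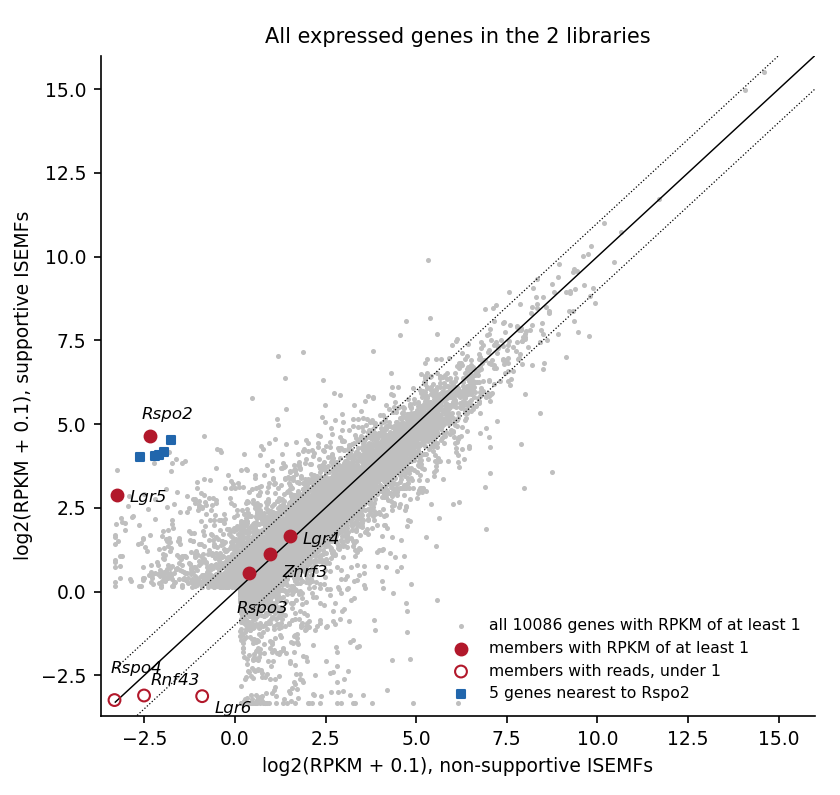
Level of each of the 10086 expressed genes (grey), as log2(RPKM + 0.1) in non-supportive (x axis) and supportive ISEMFs (y axis), with the line of equal levels and dotted lines at 2-fold, the members in red (open where under an RPKM of 1) and the 5 genes nearest to Rspo2 as blue squares. Rspo2 and Lgr5 lie at the upper left, with log2 ratios of 7.00 and 6.13, and Lgr4, Znrf3 and Rspo3 lie along the line of equal levels.

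The genes that act with R-spondins were examined as 11 lists of 98 genes. Of these, 44 were expressed, and 12 were at least 2-fold higher and 8 at least 2-fold lower in supportive ISEMFs, with a median log2 ratio of 0.01. Over all 10086 expressed genes, 18.3% differed by at least 2-fold, 9.01% being higher and 9.27% lower, with a median of -0.07. These shares are the background for each list below. Beside the 20 genes past 2-fold, genes named in the following are examples picked after their values were seen.

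Frizzled receptors, the Wnt receptors that Znrf3 and Rnf43 remove, were expressed in both populations. Of 10 genes, 8 were expressed, of which 6 were at least 2-fold higher and 2 at least 2-fold lower in supportive ISEMFs. Over all expressed genes, 18.3% differed by at least 2-fold. The largest ratio was that of Fzd1, at 79.8 in supportive and 5.32 in non-supportive ISEMFs (15.02-fold, 14.3 to 15.8). Fzd5 was at 19.99 and 6.12, Fzd2 at 10.1 and 4.41, Fzd4 at 5.81 and 1.41, Fzd6 at 4.85 and 2.30 and Fzd8 at 1.68 and 0.710. The intervals of the Fzd6 and Fzd8 ratios reached below 2, with lower limits of 1.92 and 1.97. Fzd7 was lower in supportive ISEMFs (57.0 and 128), as was Fzd3 (0.384 and 2.33). The summed RPKM of the 10 receptors was 180 and 151.

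Of the 6 co-receptors, 5 were expressed and 1 was at least 2-fold higher in supportive ISEMFs. That gene was Ror1, a receptor tyrosine kinase that binds Wnt5a, at 9.50 and 0.380 (25.0-fold, 21.3 to 29.6). Ror2, the related receptor under an RPKM of 1, went the other way with 4 and 176 reads, at 0.00839 and 0.380 (45.3-fold lower, 17.4 to 168). Lrp6 and Lrp5, the co-receptors of β-catenin signaling, were at 26.9 and 16.8 and at 2.16 and 3.13. Among the 19 Wnt ligands, only Wnt5a, which mainly acts without β-catenin, was expressed, and it was 17.3-fold lower in supportive ISEMFs (16.1 to 18.5), at 0.983 and 17.0. The other 18 Wnt genes were at an RPKM of at most 0.387, and 4 of the 19 had 0 reads in both libraries. Wls, which carries Wnt proteins to the cell surface, was at 64.6 and 42.4.

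Inside the cell, 9 of the 12 genes of the Dishevelled and destruction complex list were expressed and 0 differed by 2-fold, with Ctnnb1, the gene of β-catenin, at 78.2 and 67.1. Of the 4 Tcf/Lef factors, 2 were expressed, and Tcf7l1, mainly a repressor, was at 3.84 and 1.37 (2.81-fold, 2.53 to 3.12). Of the 14 Wnt target genes, 3 were expressed, and 1 of them, Apcdd1, itself a Wnt inhibitor, was lower in supportive ISEMFs at 0.274 and 1.35, although not by 2-fold with a pseudocount of 1. Axin2, a widely used readout of β-catenin signaling, had 7 reads in supportive and 3 in non-supportive ISEMFs. Sp5 had 0 reads in both. Nkd1, a feedback inhibitor, had 182 and 13 reads, an RPKM of 0.571 and 0.042, and its paralog Nkd2 went the other way with 97 and 271 reads, at 0.202 and 0.581.

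Secreted Wnt antagonists went in both directions. Of 14 genes, 5 were expressed and all 5 differed by at least 2-fold, against 18.3% of all expressed genes. Sfrp4, a secreted Frizzled-related protein, was at 14.2 and 0.112, which was 127-fold higher in supportive ISEMFs (91.7 to 180), and it stood at place 7 among the genes nearest to Rspo2. Frzb was at 2.88 and 0.166 and Dkk3 at 68.8 and 20.2, also higher in supportive ISEMFs. Dkk2, which blocks the Lrp co-receptors, was lower in supportive ISEMFs at 1.63 and 10.1, as was Sfrp1 at 1.45 and 7.53.

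**Figure D5:**
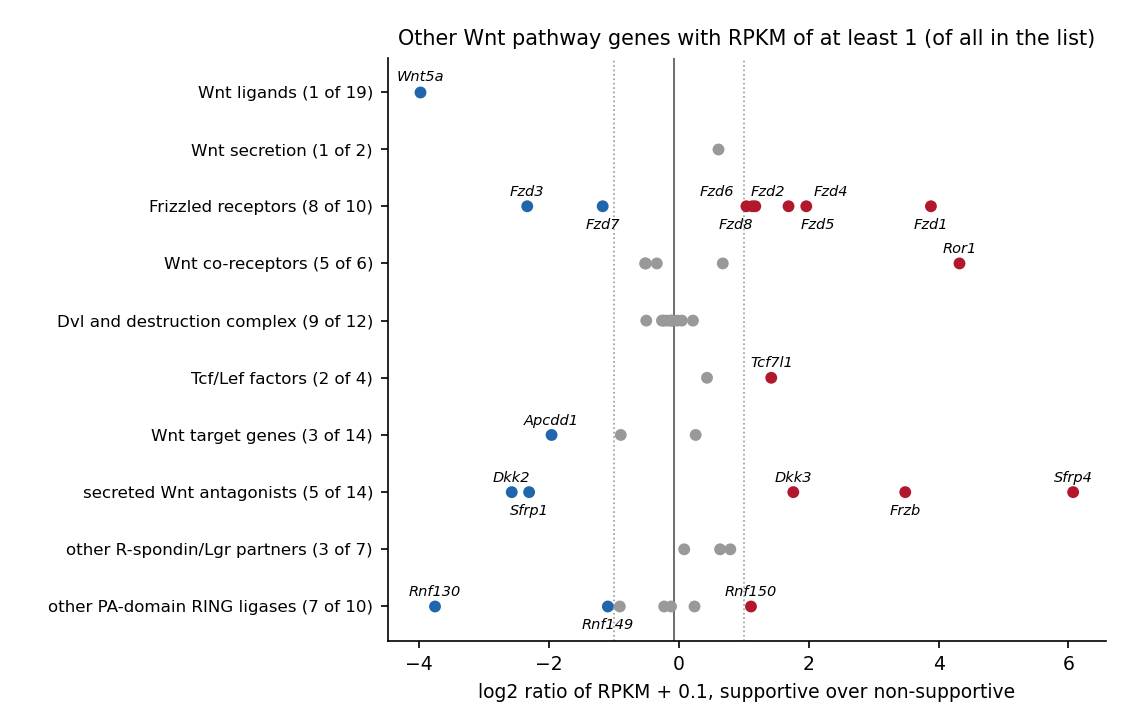
Log2 ratio of RPKM + 0.1, supportive over non-supportive ISEMFs, for each expressed gene of the Wnt pathway lists (numbers in brackets give these of all genes in the list), with the median of all genes at -0.07 as a solid line and dotted lines at 2-fold. Genes at least 2-fold higher are red and those lower are blue, with 6 Frizzled receptors on the right and 2 on the left, and the 9 Dishevelled and destruction complex genes all inside the dotted lines.

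Of 7 other partners of R-spondins and Lgr receptors, 3 were expressed and 0 differed by 2-fold. These were Sdc4, a heparan sulfate proteoglycan, at 68.3 and 39.3, the scaffold Iqgap1 at 45.3 and 42.7 and the Dickkopf receptor Kremen1 at 1.47 and 0.9101. Gpc3, a glypican under an RPKM of 1, had 0 reads in supportive and 150 in non-supportive ISEMFs. Of the 5 other leucine-rich repeat G protein-coupled receptors, which bind glycoprotein hormones or relaxins, 0 were expressed. Of the 10 other RING ligases with a protease-associated domain, the group that Znrf3 and Rnf43 belong to, 7 were expressed. Of those 7, 3 differed by at least 2-fold, against 18.3% of all expressed genes. Rnf150 was at 28.1 and 12.9, higher in supportive ISEMFs, while Rnf130 at 1.14 and 16.7 and Rnf149 at 3.16 and 6.85 were lower. The Rnf149 ratio (2.17-fold, 1.98 to 2.38) had an interval that reached below 2.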

How the data were processed

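RNA was measured in 1 library of supportive and 1 of non-supportive ISEMFs, each taken by the population named in its label. The authors prepared libraries from mRNA with the TruSeq RNA kit, which does not mark strand, sequenced them as single ends, mapped the reads to mm9 with TopHat (TopHat2 2.0.4 in the submitters' processing notes) using Ensembl genes and unique hits, and counted them with HTSeq 0.5.4p3. The Ensembl release is not given in the sources used here. The deposited counts are the authors' whole reads of each gene, not normalized. The RPKM values the authors deposited divide these by an exon length and by library sizes that come out at 71463423 and 69449374 reads. That length equals the GENCODE vM1 exon union for 65.7% of 37309 genes and the sum of the distinct vM1 exons, overlaps counted more than once, for 73.9%, so levels between genes carry this choice. The authors' columns of a log2 ratio and DESeq p-values, and a shorter table of Wnt pathway genes, were not used.

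The 9 members and all lists were chosen with earlier results of these data known. With 1 library per population no test can estimate a spread between replicates, so edgeR's quasi-likelihood test was not run. A pseudocount of 0.1 was added to RPKM before log2 ratios were taken. Expressed genes, those reaching an RPKM of 1 in at least 1 library, were counted as different at 2-fold on that log2 scale. A count of 0 was taken to allow up to 3 reads, which make 5.92e-06% and 6.05e-06% of the reads on genes. This limit is a separate rule from the exact intervals. Reads are not independent molecules, so intervals and limits cover counting error only. Genes were named when they were members, pathway list genes past 2-fold, the 5 protein-coding genes nearest to Rspo2, or the highest marker of a cell type list. Other genes named are examples. Alternatives were pseudocounts of 1 and 0.001, TMM factors (0.984 and 1.02), median-of-ratios size factors (1 for both libraries), totals without the mitochondrial genome, a minimum RPKM of 5 or none, a 4-fold threshold, shares of reads, and, added after seeing the data, other gene lengths. The steps were tested on simulated data. Coordinates are of mm9 from GENCODE vM1, and promoters are of RefSeq on GRCm38.p6. Protein sequences were not used here. TMM factors were computed with edgeR 4.0.16 and size factors with DESeq2 1.42.0 in R 4.3.3, and everything else with scipy 1.17.1, pandas 2.3.3 and numpy 2.4.6 in Python 3.11.15, with matplotlib 3.10.9 for the plots.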

Additional observations from a re-analysis of the deposited data

How the results depend on the processing

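Under all alternatives run, the log2 ratio of every member with a ratio kept its direction, and the count of members at least 2-fold different among those expressed stayed at 2 under the alternative pseudocounts, scalings, minimum RPKM of 5 and 4-fold threshold. With no minimum RPKM it was 3, Lgr6 being the added gene. The counts use the log2 ratio after the pseudocount. With 0.1 added, Rnf43 (-0.60) stayed under 2-fold although its level was 4.63-fold lower in supportive ISEMFs. For Rspo2, Lgr5, Lgr6 and Rnf43 the size moved most with the pseudocount. With a pseudocount of 1 the log2 ratio was 4.56 for Rspo2, 3.03 for Lgr5, -0.50 for Lgr6 and -0.082 for Rnf43, and with 0.001 it was 8.02, 10.38, -4.78 and -2.14. For Rspo3, Lgr4 and Znrf3 it moved most with the scaling. Totals without the mitochondrial genome raised all log2 ratios by 0.12 before the pseudocount, to 6.25 for Lgr5, 0.27 for Lgr4, 0.27 for Znrf3 and 0.28 for Rspo3, and moved the median over all genes from -0.07 to 0.04, and TMM factors gave 6.19 for Lgr5. Of all genes, 1844 were at least 2-fold different (909 higher and 935 lower in supportive ISEMFs), and this split turned with TMM factors (977 and 863), size factors (958 and 883) and totals without the mitochondrial genome (1059 and 787). The total was 1199 with a pseudocount of 1 and 659 at 4-fold. It was 878 of 5061 genes with a minimum RPKM of 5 and 3660 of 37309 with none. Of the 44 expressed pathway genes, 20 were, and 16 with a pseudocount of 1 and 9 at 4-fold. The pathway count was 14 of 28 genes with a minimum RPKM of 5 and 24 of 98 with none. The Frizzled count of 8 was 6 with a pseudocount of 1 and 2 at 4-fold. With a minimum RPKM of 5 it was 5 of the 5 Frizzled genes left. The count of 3 RING ligases was 2 with a pseudocount of 1 or without the mitochondrial genome and 1 at 4-fold. As a share of reads, Rspo2 made 96.2% of the R-spondins and Lgr5 83.3% of the Lgr receptors in supportive ISEMFs. With the gene lengths added after seeing the data, the Lgr5 share was 74.1% by the exon union and 84.2% by the longest coding transcript. The Znrf3 share in non-supportive ISEMFs was 94.7% by the latter. Log2 ratios, their ranks and the counts at 2-fold were not recomputed with those lengths. No replicate could be left out, and no paired analysis was possible because each population has 1 library. Depth limits Rspo1, Rspo4, Lgr5 in non-supportive ISEMFs and Lgr6 and Rnf43 in supportive ISEMFs, each with 12 reads or fewer.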
